A study of Mus musculus with 2 samples.

Results

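Granzymes are serine proteases that cytotoxic lymphocytes store in secretory granules, and perforin, encoded by Prf1, forms the pores through which they reach the cytosol of a target cell. The genes described here are the 9 mouse genes Gzma, Gzmb, Gzmc, Gzmd, Gzme, Gzmf, Gzmg, Gzmk and Prf1, taken by name. Of these, 6 had a row among the 20140 genes of the tables, and Gzmd, Gzme and Gzmg had none. Granzyme B cuts after aspartate and sets off caspases, granzymes A and K are tryptases, and granzymes C to G belong to a rodent family that lies beside Gzmb. Natural killer cells and CD8 T cells are among the cells known to make them, and release needs a granule to fuse with the plasma membrane facing the target.

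The submandibular salivary gland of female C57BL6/J mice, aged 14 weeks, was studied 14 days after surgery. In the ligated group a metal clip closed the main ducts of both the submandibular and the sublingual gland, and in the mock group the same ducts were found but not clipped. Each group was 1 droplet library (10X Genomics) of 2 pooled glands, from which cells bearing EpCAM (epithelial) or Ter119 (erythroid) and then dead cells had been depleted. The labels call the preparation enriched for stroma, and whether the glands of a library came from 1 animal or more is not given in the sources used here. With 1 library per group, no difference has a replicate check or a test, and every comparison describes these 2 libraries.

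The values are levels: UMIs (unique molecular identifiers, each marking 1 captured RNA) of a gene in every 10000 that a cell holds, averaged over a cluster. They are not corrected for transcript length, so levels are compared within a gene and not between genes. Cell numbers recovered from the means came to 4199 mock and 11406 ligated cells in 12 clusters. UMI totals of single cells could be recovered in part, with 354 totals in mock (median 7402.5, range 521 to 44794) and 1250 in ligated cells (median 6993, range 502 to 64065). Deep cells are over-represented among them. Not all are distinct cells, since ligated cluster 11 gave 60 totals for 59 cells. Mock cluster 0 gave 3 totals for 2363 cells and mock cluster 10 gave 66 for 85, so the medians do not describe the libraries. By cluster the median was 7980 in mock and 13890 in ligated cells of cluster 1, from 7 totals for 679 cells and 37 for 3353. These 2 medians therefore do not describe the depth of cluster 1. In cluster 7 the medians were 1230 and 1114, from 60 totals for 201 cells and 112 for 278. Cluster 1 was natural killer-like, with all 9 natural killer markers at their highest there, and cluster 2 was T cell-like, with 10 of 11 T cell markers at their highest. The other clusters in which both libraries had 50 cells or more were endothelial-like (clusters 0 and 4), fibroblast-like (3), macrophage-like (5, where all 4 B cell markers were also at their highest), mural-like (6), ductal-like (7) and erythroid-like (10). Clusters 8 (acinar genes), 9 (Schwann-like) and 11 (cycling and neutrophil genes) had 25, 17 and 22 mock cells and are given as levels only. Doublets were not called or removed here.

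Gzmb and Gzmc, the members whose levels differed in the most clusters, lie in 1 run of granzyme genes. In the GENCODE annotation of GRCm38, the build that mm10 names, chromosome 14 from 56117626 to 56262260 holds 7 protein-coding genes, all of them granzymes on the minus strand. From the low coordinate they are Gzme, Gzmd, Gzmg, Gzmn, Gzmf, Gzmc and Gzmb. Gzma and Gzmk lie on chromosome 13, at 113093825 to 113100981 and 113171608 to 113225908, and Prf1 lies on chromosome 10, at 61297833 to 61304680. The 250 bases before the RefSeq start (GRCm38.p6, gene strand, 5′ to 3′) are shown for Gzmc, Gzmb and Gzme of the chromosome 14 run, for comparison between neighbours with and without a row. Those of Gzma and Gzmk follow, as the members that lie outside the run on chromosome 13. The windows are chr14:56234658-56234907, chr14:56262335-56262584, chr14:56120626-56120875, chr13:113100982-113101231 and chr13:113180966-113181215, all on the minus strand. Capitals mark matches, on either strand, to TGTGGT (the RUNX core), TGACGTCA (a cyclic AMP response element) or TCACAC (a T-box half-site).
Gzmc: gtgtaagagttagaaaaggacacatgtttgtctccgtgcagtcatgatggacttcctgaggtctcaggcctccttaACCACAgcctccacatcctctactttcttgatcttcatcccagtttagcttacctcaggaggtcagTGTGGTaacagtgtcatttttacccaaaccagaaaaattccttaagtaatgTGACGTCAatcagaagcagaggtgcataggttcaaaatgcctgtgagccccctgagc
Gzmb: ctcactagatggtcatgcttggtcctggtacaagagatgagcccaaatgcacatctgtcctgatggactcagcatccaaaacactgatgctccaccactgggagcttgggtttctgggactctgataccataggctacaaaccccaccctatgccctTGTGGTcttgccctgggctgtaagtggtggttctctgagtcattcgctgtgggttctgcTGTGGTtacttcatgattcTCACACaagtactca
Gzme: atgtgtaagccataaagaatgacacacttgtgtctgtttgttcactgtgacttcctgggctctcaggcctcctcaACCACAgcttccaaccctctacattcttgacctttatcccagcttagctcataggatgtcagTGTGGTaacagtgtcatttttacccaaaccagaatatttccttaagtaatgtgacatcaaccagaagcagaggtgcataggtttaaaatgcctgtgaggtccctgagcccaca
Gzma: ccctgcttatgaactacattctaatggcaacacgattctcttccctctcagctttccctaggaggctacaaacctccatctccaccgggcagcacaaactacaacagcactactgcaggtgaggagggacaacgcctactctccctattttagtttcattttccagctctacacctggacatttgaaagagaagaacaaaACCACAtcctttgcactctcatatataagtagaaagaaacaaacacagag
Gzmk: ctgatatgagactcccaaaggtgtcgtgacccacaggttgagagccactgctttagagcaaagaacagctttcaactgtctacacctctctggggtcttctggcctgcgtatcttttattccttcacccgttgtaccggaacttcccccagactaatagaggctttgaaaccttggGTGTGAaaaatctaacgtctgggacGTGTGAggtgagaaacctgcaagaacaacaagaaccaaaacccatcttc

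The Gzmc window matched that of Gzme at 81.8% of aligned positions and that of Gzmb at 50.2%, the latter near the 50.0% between Gzma and Gzmb, which lie on different chromosomes. RefSeq windows were found for all 9 genes. TGTGGT or its reverse complement stood in 8 of the 9, all but Gzmk, and in 14.0% of the 32851 windows of the genome. In Gzmc it began 174 and 108 bases before the start, in Gzme 175 and 113, in Gzmb 93 and 34, and in Gzma 50. The windows of Gzmc, Gzmd, Gzme, Gzmf and Gzmg matched each other at 71.5% to 94.8% of aligned positions, so their matches are not separate cases. TGACGTCA stood in Gzmc, 57 bases before the start, and also in Gzmf and Gzmg, and in 1.55% of all windows. TCACAC stood in Gzmb, 15 bases before the start, and at 74 and 49 in Gzmk, and in 12.3% of all windows. The last motif, TTCNNNGAA (the STAT element), stood in none of the 9 and in 7.02% of all windows. No matches overlapped each other, and a match describes these letters only. Transcripts of the run other than Gzmb also share stretches: 4.14% of the 50-base words of Gzmc, 7.36% of those of Gzmf and 5.74% of those of Gzmn also occur in another gene, against 21.9% for Gzmd, 20.6% for Gzme and 19.8% for Gzmg. For Gzma, Gzmb, Gzmk and Prf1 the share was 0. Reads from shared stretches cannot be given to 1 gene, so the levels of Gzmc and Gzmf carry some uncertainty. Its size is not known, since where the reads fall along a transcript was not examined.

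Gzmc, a granzyme of the rodent family that kills cells by a route other than that of granzyme B, was higher in the ligated library in both lymphoid clusters. Its level in the natural killer-like cluster was 23.2 in mock and 46.5 in ligated cells, a 2.00-fold difference. In the T cell-like cluster it was 6.06 in mock and 15.7 in ligated cells, 2.60-fold higher. The difference used below is log2((ligated + 0.1)/(mock + 0.1)), which understates folds of low values, and the size rule asks for a higher level of at least 0.5 and a difference of at least 1 in size. By this measure Gzmc was higher by 1.00 in the natural killer-like cluster, at the edge of the rule, and by 1.36 in the T cell-like cluster. The natural killer-like value fell short of the rule with a pseudocount of 1 (0.97) and after subtraction of a mean profile of the library (0.96).

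Gzmb, the main caspase-activating granzyme, was higher in the same clusters by less than the rule asks. It stood at 13.5 in mock and 18.3 in ligated natural killer-like cells, a difference of 0.44. In T cell-like cells it stood at 4.45 and 7.63, a difference of 0.76. Gzma, a granzyme that cuts after basic residues, was lower in both, with levels of 8.42 in mock and 6.84 in ligated natural killer-like cells (-0.30). In T cell-like cells Gzma stood at 6.52 in mock and 3.47 in ligated cells (-0.89), also short of the rule. Prf1 differed little, at 2.46 and 1.97 in natural killer-like cells (-0.30) and at 1.01 and 0.899 in T cell-like cells (-0.15). Gzmb and Gzmc were thus higher, and Gzma and Prf1 lower, in both lymphoid clusters of the ligated library, and of these 4 genes Gzmc alone was past the rule there.

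Gzmk, which marks a memory-like state of CD8 T cells, was found mainly in the T cell-like cluster. Its level there was 0.336 in mock and 1.35 in ligated cells, 4.03-fold higher and past the rule with a difference of 1.74, although with a pseudocount of 1 the difference was 0.82. In natural killer-like cells Gzmk stood at 0.0138 in mock and 0.0163 in ligated cells. Gzmf, a neighbour of Gzmc, was listed at 0 in all 12 mock clusters, that is in 0 of 4199 cells. It is among the 3834 genes above 0 in 1 library only, and whether it was counted in the mock library is not given in the sources used here. If it was, the 0 allows a share of up to 0.0714% of cells with a UMI. In the ligated library Gzmf was above 0 in the natural killer-like (0.00298) and T cell-like (0.000712) clusters alone, and the T cell-like value equals 1 UMI in 1 cell of 10076 UMIs. Such a limit covers counting error only.

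Against all genes of the same cluster, 1 of the 4 members that reached the minimum level was past the rule in the natural killer-like cluster, where 3% of the genes at the minimum level were higher. In the T cell-like cluster 2 of the 5, Gzmc and Gzmk, were past it, where 3.08% were higher. Gzmk, at 0.336 in mock cells, reached the minimum through the ligated level alone and could not be called lower. Of the 2896 genes at the minimum in the natural killer-like cluster, 86 had a larger rise than Gzmc. Of the 2958 in the T cell-like cluster, 70 had a larger rise than Gzmk, 78 than Gzmc and 118 than Gzmb, while 74 had a larger fall than Gzma. Without all genes of that kind, above 0 in 1 library only, 62 and 86 genes in place of 132 and 158 were past the rule in either direction. The members were not chosen at random with respect to these libraries, since earlier results of the same data were known, so the positions describe them and test nothing.

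**Figure D1:**
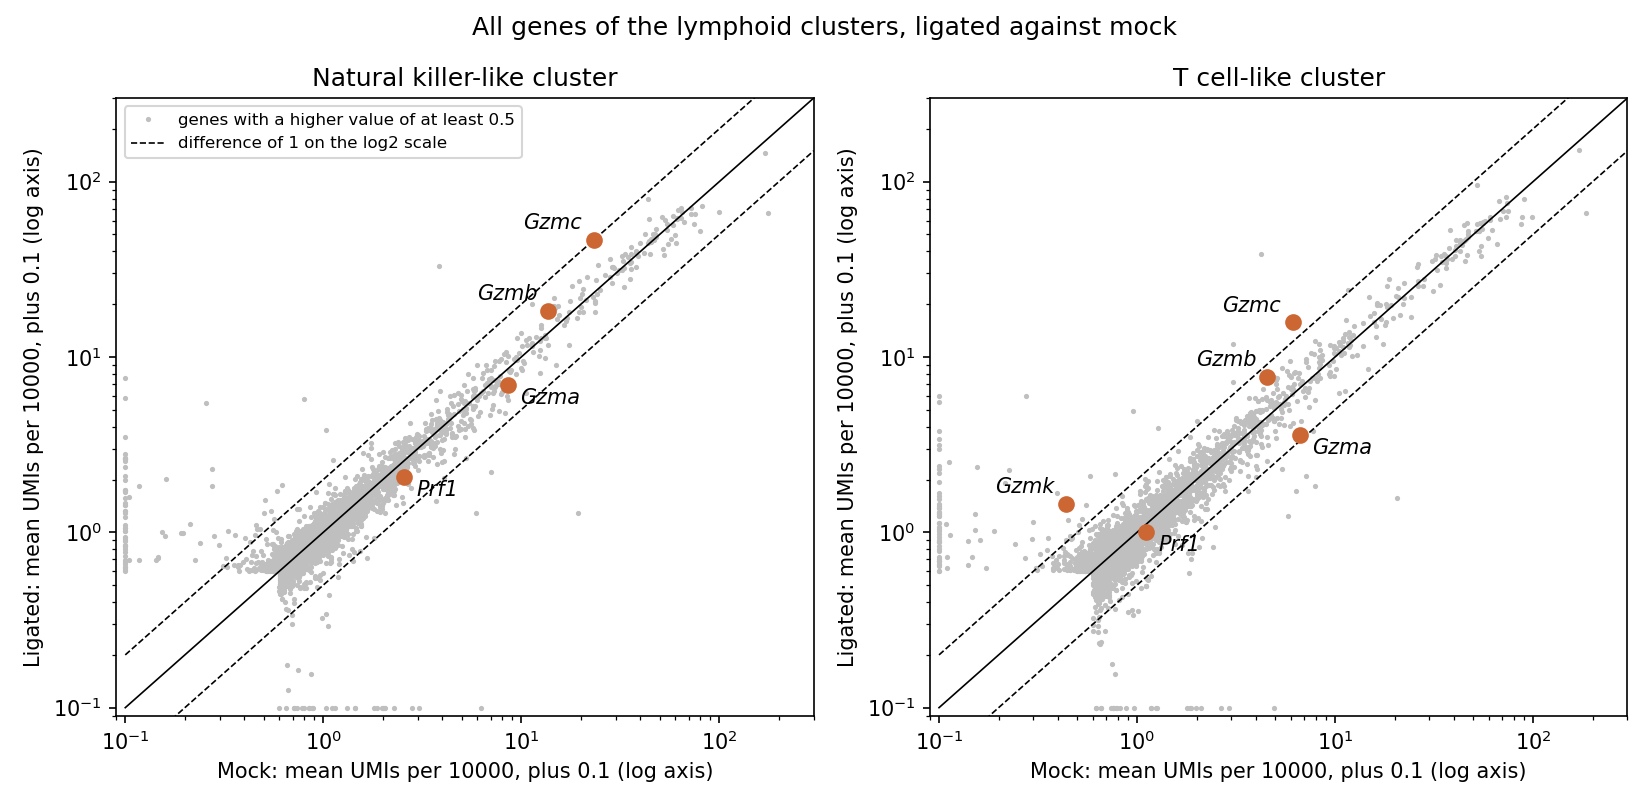
Ligated against mock level (UMIs per 10000 plus 0.1, log axes) of the genes whose higher level is at least 0.5 in the natural killer-like and T cell-like clusters, with granzymes and Prf1 named and dashed lines at a difference of 1. Gzmc lies above the line of equal levels in both clusters (23.2 and 46.5 in natural killer-like cells), whereas Gzma lies below it in both (6.52 and 3.47 in T cell-like cells).

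Lymphocyte markers of the T cell-like cluster were set beside the members. Of 11 T cell markers 10 reached the minimum level and 2 were past the rule, and of 4 gamma delta T cell genes 1 was higher and 2 lower. The CD8 co-receptor genes were the T cell markers past it, higher in ligated cells, Cd8a at 1.90 in mock and 4.22 in ligated cells and Cd8b1 at 2.97 and 7.14. The gamma delta T cell receptor genes Trdc (2.37 and 0.973) and Trdv4 (0.555 and 0.136) were lower, while Tcrg-C2 (0.349 and 1.08) was higher. Of 5 innate lymphoid cell genes 1 was past the rule. That gene, Il7r, the interleukin 7 receptor of resting T cells and innate lymphoid cells, was lower, at 6.22 in mock and 1.63 in ligated cells. Short of the rule, Cxcr6 was higher (0.23) and Rora (-0.44), Itga1 (-0.17) and Gata3 (-0.59) were lower. The whole natural killer list was present in the T cell-like cluster, with 9 of 9 markers above 0 and levels of 0.840 to 4.11 in mock and 0.853 to 3.73 in ligated cells, and 0 of 9 were past the rule. What part these differences have in the levels of Gzma, Gzmk and Gzmc was not tested. In the natural killer-like cluster 0 of 9 natural killer markers were past the rule, with a median difference of -0.17. Il7r was lower (0.891 and 0.225), the 1 of 5 innate lymphoid cell genes past the rule there. Short of it, Cxcr6 (0.49) and Itga1 (0.25) were higher and Rora (-0.57) and Gata3 (-0.72) lower.

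Of 7 lists of genes that act with granzymes, few genes were past the rule in the lymphoid clusters. Of 11 granule partners and processing enzymes with a row 7 reached the minimum level in each cluster. Of these, 0 were past the rule in the natural killer-like cluster, and 1 was past it in the T cell-like cluster. That gene was Nkg7, a granule membrane protein needed for degranulation, at 11.5 in mock and 24.04 in ligated cells. The list's median difference was 0.22 in the natural killer-like and 0.16 in the T cell-like cluster, beside -0.0028 and -0.0085 over all genes. The partners Ctsw, a granule cysteine protease (9.36 and 12.7 in natural killer-like cells), Srgn, the proteoglycan that packs granzymes (9.45 and 9.53), and Ctsc, which removes the propeptide of progranzymes (0.785 and 0.642), were short of the rule.

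Of the 9 genes of granule exocytosis 3 reached the minimum level in each lymphoid cluster, and 0 of them were past the rule, with medians of -0.18 in natural killer-like and -0.0029 in T cell-like cells. Of the 7 serpin inhibitors of granzymes 3 reached it in natural killer-like and 5 in T cell-like cells, and 0 were past the rule, with medians of -0.22 and -0.56. Serpinb9, the inhibitor of granzyme B, stood at 0.701 in mock and 0.383 in ligated natural killer-like cells, and Serpinb6b, an inhibitor of granzyme A, at 0.864 and 0.433. Of the 12 intracellular targets 3 reached the minimum in each cluster, and of the 6 death ligands and cytokines 3 in natural killer-like and 5 in T cell-like cells. None of these was past the rule, with medians of -0.034 and -0.074 for the targets and 0.12 and 0.10 for the ligands. Of 10 transcriptional regulators 6 reached the minimum in natural killer-like and 4 in T cell-like cells and 0 were past the rule, and Eomes, a T-box factor of natural killer and CD8 T cells, came nearest at 1.71 in mock and 0.829 in ligated natural killer-like cells (-0.96), with medians of -0.15 and -0.12. Of 14 cytokines and receptors that induce granzymes 3 and 5 reached the minimum, and 1 was past the rule, Il18r1, the interleukin 18 receptor, at 1.74 in mock and 0.483 in ligated T cell-like cells, with medians of -0.18 and -0.40. Over all genes at the minimum, 1.55% in the natural killer-like and 2.27% in the T cell-like cluster were lower by the rule.

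Over the whole library the members were higher in ligated cells, and lymphoid clusters took a larger share of the cells. Natural killer-like cells were 16.2% of mock and 29.4% of ligated cells, and T cell-like cells 3.69% and 12.2%. The library mean of Gzmc was 4.21 in mock and 17.3 in ligated cells (4.10-fold), and that of Gzmb was 2.50 and 7.05 (2.82-fold). Gzma went from 1.66 to 2.75 and Prf1 from 0.460 to 0.766, each about 1.66-fold higher. With the ligated clusters weighted by the mock library's mix of cells, Gzmc was still 2.27-fold and Gzmb 1.58-fold higher, while Gzma (0.909-fold) and Prf1 (0.950-fold) were lower. Gzmk had library means of 0.0155 and 0.186 (12.02-fold), and 4.27-fold at the mock mix. Gland depletion and recovery of cells also set these shares, so they do not describe the gland.

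**Figure D2:**
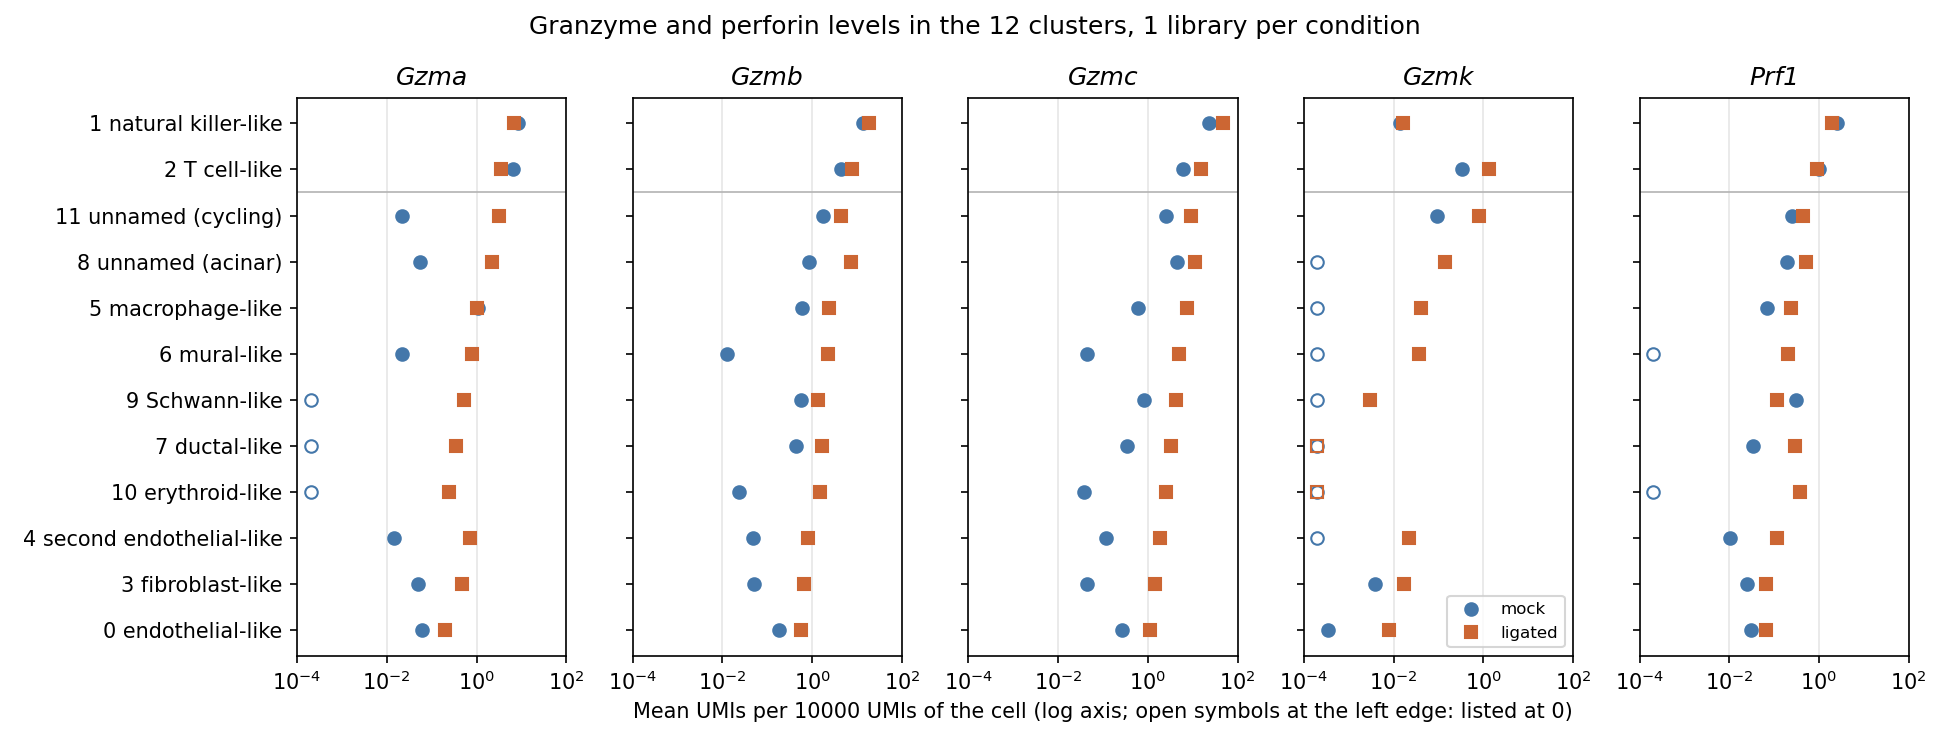
Level (UMIs per 10000, on a log scale where 0 is drawn at the left edge) of Gzma, Gzmb, Gzmc, Gzmk and Prf1 in the 12 clusters, mock and ligated as separate points. The natural killer-like cluster is highest for Gzma, Gzmb, Gzmc and Prf1 in both libraries, the T cell-like cluster for Gzmk, and the ligated points of Gzmb and Gzmc lie right of the mock points in every cluster.

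The natural killer-like cluster held most of the summed expression of Gzma, Gzmb, Gzmc and Prf1 in both libraries. Its share of Gzmc was 89.1% in mock and 79.2% in ligated cells, and its share of Gzmb 87.2% and 76.3%. Its share of Prf1 was 86.4% and 75.7%, and that of Gzma 82.0% and 73.1%. The T cell-like cluster held 80.1% of the mock and 88.8% of the ligated Gzmk. Natural killer-like and T cell-like cells together held 94.6% of Gzma, Gzmb, Gzmc and Prf1 in mock and 90.0% in ligated cells, so about 1 part in 10 of the ligated signal lay in other clusters. The clusters were made from these same genes (Gzmc was among the 10 leading genes of the natural killer-like cluster), and the order of clusters is a description.

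**Figure D3:**
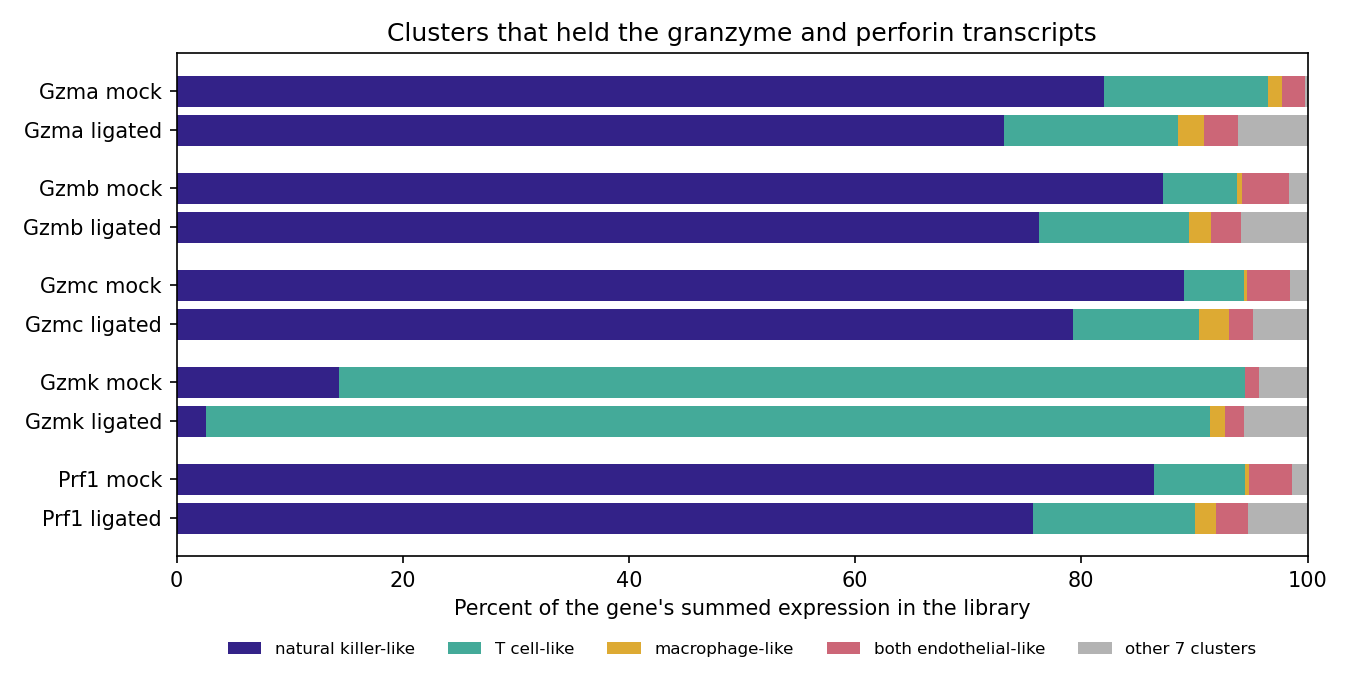
Percent of each gene's summed expression held by the natural killer-like, T cell-like, macrophage-like, both endothelial-like and the other 7 clusters, for the mock and the ligated library. For Gzmc the natural killer-like part is 89.1% in mock and 79.2% in ligated cells, and Gzmk is held by the T cell-like cluster (80.1% and 88.8%).

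Outside the lymphoid clusters Gzmb and Gzmc were above 0 in every cluster of both libraries and were higher in the ligated library in all 7 compared clusters. In macrophage-like cells Gzmc stood at 0.609 in mock and 7.67 in ligated cells (3.45) and Gzmb at 0.602 and 2.34 (1.80). In mural-like cells Gzmc stood at 0.0451 and 4.88 (5.10) and Gzmb at 0.0128 and 2.28 (4.40), where the mock value of Gzmb equals 1 UMI in 1 cell of 4858 UMIs. In fibroblast-like cells Gzmc stood at 0.0433 and 1.46 (3.45) and Gzmb at 0.0506 and 0.642 (2.30). Gzmc stood at 0.273 and 1.10 in the first endothelial-like cluster (1.69), at 0.116 and 1.90 in the second (3.21), at 0.346 and 3.26 in ductal-like cells (2.91) and at 0.0382 and 2.48 in erythroid-like cells (4.22). The first endothelial-like cluster, the largest of the mock library, had the smallest difference of the 7 for both genes.

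Gzma was higher by the rule in the second endothelial-like cluster (0.0145 and 0.717) and in mural-like cells (0.0213 and 0.810), and was level in macrophage-like cells (1.09 and 1.04). Prf1 reached at most 0.385 in these ligated clusters, in erythroid-like cells, and was under the minimum in all 7. Gzmk stayed at or below 0.0406. In the clusters given as levels only, Gzmc stood at 4.48 in mock and 11.3 in ligated cells of cluster 8, at 0.840 and 4.32 in Schwann-like cells and at 2.57 and 9.25 in cluster 11. In cluster 8, markers of other cell types stood at a median of 1.18% of their library mean in mock and 99.3% in ligated cells. Recovered UMI totals there had a median of 5457 in mock and 1197 in ligated cells. Gzmk stood at 0.787 in ligated cells of cluster 11, beside 0.0930 in mock.

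Of the 54 pairs of a member and a compared cluster, 26 reached the minimum level, 19 were higher in the ligated library by the rule and 0 were lower. Outside the lymphoid and macrophage-like clusters, all pairs at the minimum had a mock level under 0.5. Such pairs, like Gzmk in T cell-like cells, reached the minimum through the ligated level alone and could not be called lower. Where the mock level was low enough, reaching the minimum was itself enough for a call of higher. This held for every pair at the minimum in the second endothelial-like, fibroblast-like, mural-like and erythroid-like clusters, and for Gzmb in the first endothelial-like. The counts of 19 and 0 are thus in large part set by the rule. Over all genes and the same clusters, 6.89% of pairs at the minimum were higher and 4.17% lower. Gzmc was past the rule in 9 of 9 clusters, Gzmb in 7, Gzma in 2, Gzmk in 1, and Prf1 and Gzmf in 0. Of the 19 pairs, 16 were in clusters that are not lymphoid. There the share of all genes that were higher was 3.92% in the first and 3.29% in the second endothelial-like cluster, 4.47% in the fibroblast-like, 4.15% in the macrophage-like, 4.92% in the mural-like, 14.8% in the ductal-like and 23% in the erythroid-like cluster. The shares lower were, in that order, 2.68%, 2.81%, 5.32%, 4.34%, 4.5%, 11.6% and 2.14%. In the erythroid-like cluster genes above 0 in both libraries lay higher by a median of 0.29, and after centring on that median 341 genes were higher and 116 lower, in place of 689 and 64. The members' calls were the same after that centring. Subtraction of a library mean profile, scaled to the level that markers of foreign cell types reach in the cluster, gave 5 pairs higher and 1 lower in place of 19 and 0, with 3 of the 5 and the lower one, Gzma in macrophage-like cells (-1.17), outside the lymphoid clusters. It turned 5 differences, those of Gzmb and Gzmc in the first endothelial-like cluster (-0.73 and -0.86) and in ductal-like cells (-0.22 and -0.52) and of Gzmc in erythroid-like cells (-0.039).

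Natural killer markers were set beside the members in these clusters. By the rule 0 of the 9 were higher in both endothelial-like clusters and the fibroblast-like, where 0 reached the minimum level and could be called. In macrophage-like cells 3 of the 7 at the minimum were higher, and in mural-like cells 3 of 3. In ductal-like cells 4 of 4 were higher, and in erythroid-like cells 2 of 2. The mock levels of all 9 markers summed to 0.0933 in mural-like and 0.0876 in erythroid-like cells. Any marker that reached the minimum there was therefore higher by the rule, and these counts show nothing further. The shares of all genes are those given above. The median difference of all 9 markers was 0.67 for first endothelial-like, 1.29 for second endothelial-like and 0.93 for fibroblast-like cells. Over all genes the medians were, in that order, 0.053, 0.029 and -0.042. For macrophage-like, mural-like, ductal-like and erythroid-like cells the markers' medians were 0.93, 2.20, 1.71 and 2.16. Those over all genes were 0.067, -0.0014, 0.019 and 0.39. The next measure is a gene's level in a cluster as a percent of its library mean, as the median over Gzma, Gzmb, Gzmc and Prf1 and over the 9 natural killer markers. In ligated first endothelial-like cells it was 7.65% for the members and 9.40% for the markers, in fibroblast-like cells 8.79% and 9.13%, in macrophage-like cells 35.4% and 35.0%, and in mural-like cells 28.8% and 22.5%. Markers of cell types foreign to the cluster, lymphocytes included, stood at 9.22%, 9.45%, 25.1% and 19.4% in the same clusters. The plasma cell, plasmacytoid dendritic cell and cycling lists were left out of these, as were markers with a library mean under 0.05. In the second endothelial-like cluster it was 13.2% for the members and 16.9% for the natural killer markers in ligated cells and 2.11% and 6.25% in mock cells. In mock cells it was 6.52% and 7.38% in the first endothelial-like cluster and 0.791% and 1.07% in mural-like cells, where 3 of 9 natural killer markers were listed at 0.

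Over the 7 clusters the members' median ran from 7.65% to 35.4% of the library mean in ligated cells and from 0.453% to 19.4% in mock cells. Over all 28 pairs of these 4 members and 7 clusters, the median was 18.2% in ligated and 2.52% in mock cells, and as a mean over the cells of these clusters 14.2% and 5.88%. The natural killer markers' median ran from 9.13% to 35.0% and from 0.719% to 26.0%. Of the 28 pairs, 12 lay within the range of the 9 natural killer markers in ligated and 17 in mock cells, with 0 of 4 in the ligated first and in the mock second endothelial-like cluster. All 9 natural killer markers were above 0 in each of the 7 ligated clusters. Whether RNA carried over from other cells, doublets or expression in the named cells gave these levels was not tested.

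**Figure D4:**
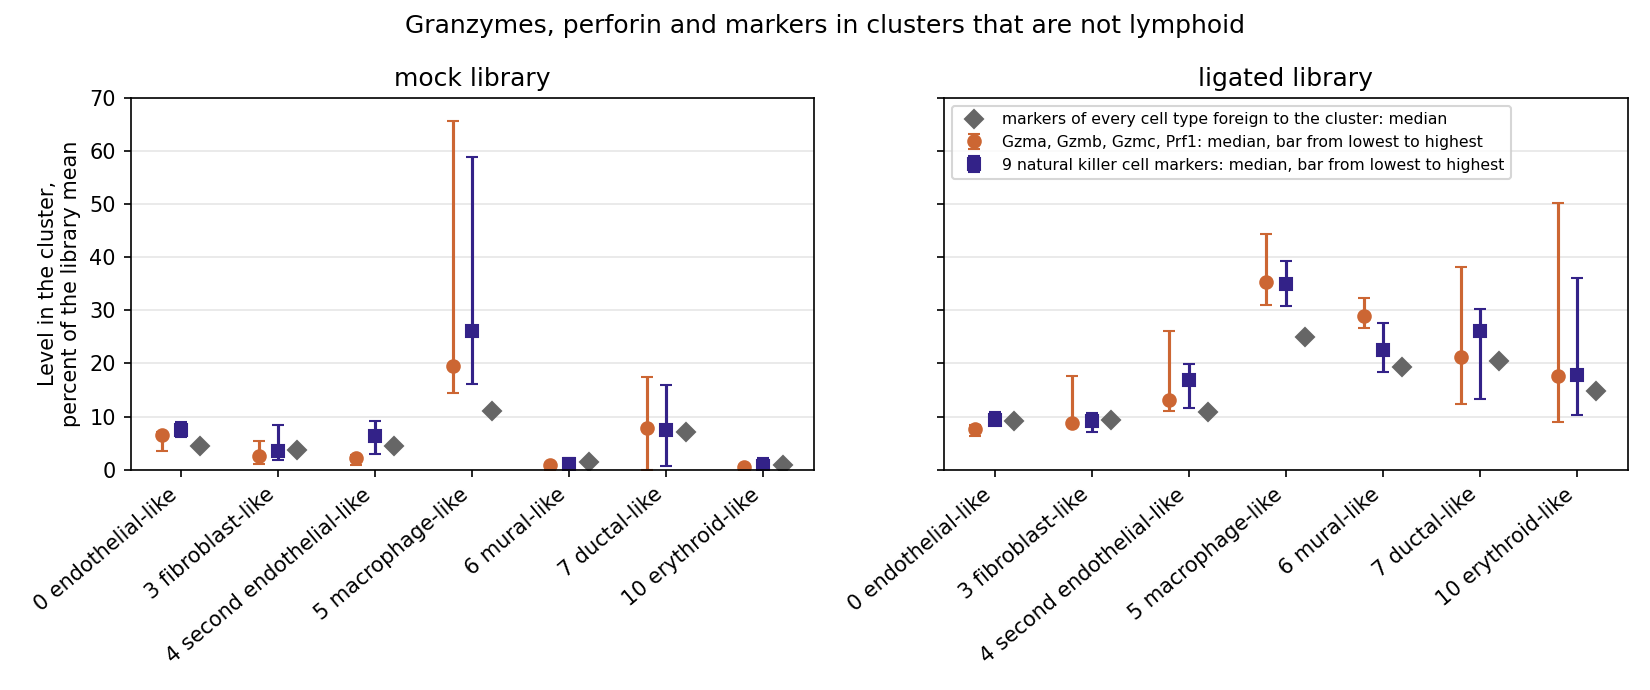
Level in each cluster that is not lymphoid as a percent of the library mean, in the mock and the ligated library. Points are medians over Gzma, Gzmb, Gzmc and Prf1, over 9 natural killer markers and over markers of cell types foreign to the cluster. The last leave out the plasma cell, plasmacytoid dendritic cell and cycling lists. Bars run from the lowest to the highest gene. In ligated macrophage-like cells the members' median (35.4%) and that of the natural killer markers (35.0%) lie together, and in mock mural-like cells all lie near 1%.

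The proportions between members were also compared between lymphoid and other clusters of the ligated library. Gzmb per Gzmc, as a ratio of UMI levels not corrected for length, was 0.393 in natural killer-like and 0.485 in T cell-like cells, and ran from 0.305 in macrophage-like to 0.592 in erythroid-like cells over the other 7, with a median of 0.467. Gzma per Gzmc was 0.147 and 0.220, and ran from 0.0987 to 0.378 over the other 7. Prf1 per Gzmc was 0.0424 and 0.0571, and ran from 0.0310 to 0.155. In mock cells the proportions spread more widely, with Gzmb per Gzmc at 0.581 in natural killer-like cells and from 0.283 to 1.27 over the other 7, many of whose levels rest on few UMIs. Gzma per Gzmc in mock macrophage-like cells was 1.79, above the 0.363 of natural killer-like and the 1.08 of T cell-like cells.

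Of the 11 granule partners with a row, 7 to 9 reached the minimum level outside the lymphoid clusters. In the first and second endothelial-like, fibroblast-like, macrophage-like and mural-like clusters 2 were past the rule, in the erythroid-like 3 and in the ductal-like 8, all of them higher. The shares of all genes are those given above. Ctsw and Nkg7, and Xcl1, a chemokine of natural killer and CD8 T cells, were higher by the rule in all 7 of these clusters. In mural-like cells Nkg7 stood at 0.0300 in mock and 2.15 in ligated cells and Xcl1 at 0.0201 and 2.14. In fibroblast-like cells Ctsw stood at 0.0912 and 0.703. At such low mock levels, a gene that reached the minimum was higher by the rule in any case. Srgn went the other way, short of the rule, in the first (15.3 and 10.3) and second (13.3 and 8.79) endothelial-like clusters and in macrophage-like cells (7.60 and 5.86). Of the 12 intracellular granzyme targets 2 to 6 reached the minimum level in these clusters, and those past the rule were Hmgb2 and Parp1 in erythroid-like cells. Of the 7 serpin inhibitors 1 to 4 reached it, and Serpinb6b in ductal-like cells was past the rule.

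Genes whose levels followed a member most closely over the 24 columns (12 clusters in each library) were found by Pearson correlation of log2(level + 0.1) among 7968 genes. For Gzmc they were Cd7 (0.97), Xcl1 (0.96) and Nkg7 (0.96), and for Gzmb Cd7 (0.98), Ctsw (0.98) and Xcl1 (0.98). For Gzma they were Dennd1c, Dennd4a and Tnfrsf18, each at 0.93. Prf1 was followed by the natural killer receptor genes Klre1 (0.98), Klrc2 (0.97) and Klrb1c (0.96), and Gzmk by the T cell genes Themis (0.98), Cd8a (0.96) and Cd6 (0.96). Cd7, a surface protein of natural killer and T cells, stood at 11.2 in mock and 19.9 in ligated natural killer-like cells, and Klre1 at 5.61 and 3.83, the same directions as Gzmc and Prf1. Of these 15 genes, 6 were also named by Spearman correlation and 7 over the 12 columns of both libraries together. The columns share libraries and clusters, and the correlations are descriptions over 24 columns.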

How the data were processed

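The deposited tables hold means per cluster for 2 libraries, 1 per group. Per the submitters' processing notes, Cell Ranger 6.0.1, Seurat and mm10 were used, and filters on cells, clustering settings and gene annotation are not given in the sources used here. Each deposited value is a linear mean of UMIs per 10000, so it is no count and no CPM, a reading drawn from the values: every column sums to 10000, and joint values equal weighted means of the split ones within 1.5e-07. The authors' counts per cell were not used here, so no count model was fitted. Calendar dates in place of 21 gene symbols were restored by gene order, and 0 value columns lacked a sample.

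Numbers of cells came from genes listed at 0 in 1 library, whose ratio of joint to split value is a fraction of cells (tolerance 2e-09). A UMI total was kept where at least 3 genes gave it, and some totals may be fractions of a deeper cell's, so they are approximate. The recovery and the size rule were tested on simulated cells without carried-over RNA. Changed genes there started above most of the members' mock levels outside the lymphoid clusters. Their changes were larger than that of Gzmc in natural killer-like cells. Calls on low levels or at the edge of the rule were therefore not checked. Differences use a pseudocount of 0.1, a minimum of 0.5 for the higher value, a size of 1 and clusters in which both libraries had 50 cells or more. List medians use genes whose mean of both values is at least 0.05. Named genes are the members with a row, genes of the 7 pathway and 19 marker lists, and the 3 genes most correlated with each member that reached 0.5. Members and lists were chosen with earlier results of these data known. Of 185 list genes, 7 had no row. Positions come from GENCODE M21, promoter windows from RefSeq, with identities from Biopython 1.88 alignments. Windows that overlap an annotated exon (Gzmd, Gzmf and Prf1) are not shown. The tools were Python 3.11.15, NumPy 2.4.6, pandas 2.3.3 and Matplotlib 3.10.9. Alternatives were other pseudocounts, minimums and sizes, centring, rescaling without genes listed in 1 library, subtraction of a library mean profile scaled to the markers of other cell types, other cell mixes, and other correlations.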

Additional observations from a re-analysis of the deposited data

Results flagged for a closer look

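The difference of Gzma had opposite signs in different clusters, at -0.89 in T cell-like cells, which is short of the size rule, and 2.91 in mural-like cells, which is past it. The difference between the clusters was not tested, since each rests on 1 library per group.

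The tables of a subset whose name cites pdgfr and gli1 were used in no comparison above. Gzmc stood at 0.790 in ligated and 0.0567 in mock cells of its cluster 2 (274 and 128 cells), and at 0.991 in ligated cells of its cluster 3 (260 cells), where it was listed at 0 in mock (82 cells). These ligated levels are above those of the mock cells and were not tested.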

How the results depend on the processing

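With 1 library per group, none was left out. No paired analysis was possible because the labels give no replicate numbers. In mock clusters with few cells, levels can rest on 1 UMI, and 50 cells is the smallest group compared.

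Among the 26 pairs at the minimum, centring, a pseudocount of 0.01 and rescaling without genes listed in 1 library changed no call, and all 26 kept their direction under each. A pseudocount of 1 gave 10 pairs past the rule, 0 in the natural killer-like cluster, 1 in the T cell-like and 9 elsewhere, and 821, 53 and 56 genes over all compared clusters, the natural killer-like and the T cell-like, in place of 3418, 132 and 158. Without a minimum 7 more pairs were past it, of Gzma and Prf1, and the genes were 8741, 419 and 431. A minimum of 2 gave 8 pairs, 1 in the T cell-like cluster and 6 elsewhere, and 828, 27 and 38 genes. A size of 2 gave 12 pairs, 0 in either lymphoid cluster, and 1242 genes in all and 95 in the T cell-like cluster. Without genes listed in 1 library, 62 natural killer-like and 86 T cell-like genes were past it.

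Subtraction of the mean profile gave 6 pairs past the rule, 0 in the natural killer-like cluster, 2 in the T cell-like and 4 elsewhere. Of these 5 were higher and 1 lower, the lower one being Gzma in macrophage-like cells (-1.17, against -0.066 without subtraction). It reversed Gzmb (-0.73) and Gzmc (-0.86) in the first endothelial-like cluster, Gzmb (-0.22) and Gzmc (-0.52) in ductal-like cells and Gzmc (-0.039) in erythroid-like cells; it removes by construction what markers of other cell types reach. At the mock cell mix, the library mean of Gzma (-0.13) and Prf1 (-0.061) reversed and that of Gzmb (0.64) fell short of the rule. Without clusters under 50 cells the lymphoid share was 95.3% in mock and 92.4% in ligated cells. The percent of the library mean outside the lymphoid clusters, as a mean over cells, had a median over the 4 members of 5.88 in mock and 14.2 in ligated cells. As a percent of the natural killer-like level, the median over the 28 pairs of member and cluster was 0.464 and 7.04. Of the 15 genes most like a member, 6 were named by Spearman correlation and 7 over 12 joint columns. The cause of the other changes was not tested.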

Other observations

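In the subset named for pdgfr and gli1, cluster 1 (14 mock and 435 ligated cells) held the members at levels like those of the lymphoid clusters of all cells. Gzmc stood there at 23.6 in mock and 22.0 in ligated cells, Gzmb at 12.1 and 9.85, Gzma at 11.2 and 4.68, and Prf1 at 2.02 and 0.889. Gzmc and Gzmb were thus lower in ligated cells here, whereas both were higher in the lymphoid clusters of all cells. With 14 mock cells these are given as levels only. Gzmk was listed at 0 in mock and stood at 0.295 in ligated cells. In subset cluster 0 (167 mock and 949 ligated cells) Gzmc stood at 0.0110 and 0.451 and Gzmb was listed at 0 in mock and stood at 0.182 in ligated cells.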
